A study of Homo sapiens with 6 samples.

Results

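Glycolysis turns glucose into pyruvate and lactate, and the hypoxia inducible factors (HIF) raise the transcription of many of its genes when oxygen is low. The 41 genes described here are a fixed list of both sets, taken by gene symbol, and 40 of them had a row among the 22004 genes of the count table. All 40 were among the 16330 genes that were tested. The expression of CA9, carbonic anhydrase 9, was not analysed here. The list holds 2 glucose transporters, 17 glycolytic enzymes, 2 PFKFB regulators, 2 monocarboxylate transporters, 2 pyruvate dehydrogenase (PDH) kinases, 3 HIF subunits, 4 oxygen sensing genes (VHL and the EGLN prolyl hydroxylases) and 9 HIF-induced genes outside metabolism, CA9 among them.

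H1299 is an established human lung carcinoma line, and AVJ16 is a small molecule that inhibits IGF2BP1, a protein that binds mRNAs and affects their stability and translation. The design holds a single comparison, in which 3 libraries of cells given 1.5 µM AVJ16 for 48 h (D, E and F) were set against 3 libraries of cells given DMSO, the solvent, for the same time (A, B and C). All 6 libraries were poly(A) RNA of wild type H1299 cells, and no label names a library grown at low oxygen. The labels do not say whether the libraries of a group came from separate cultures. The authors' methods state that each experiment had at least 3 biological repeats and that RNA-seq was run in triplicates. Each p-value measures only the spread between these libraries.

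In glycolysis, hexokinase, phosphofructokinase and pyruvate kinase catalyse the irreversible steps, and lactate dehydrogenase regenerates NAD+ by reducing pyruvate. PDH kinases phosphorylate and switch off the PDH complex, which keeps pyruvate out of the mitochondrial tricarboxylic acid (TCA) cycle. HIF-1 pairs an alpha subunit with ARNT. With oxygen present, the EGLN enzymes hydroxylate the alpha subunit, and VHL then directs it to degradation, so that the level of the protein is set mostly after transcription. EGLN1, EGLN3, PDK1, ALDOC and many glycolytic genes are known targets of HIF.

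The libraries held 19353830 to 30253721 counts. Library D of the AVJ16 group stood apart, with 11.9% of its counts on mitochondrially encoded genes against 5.13% to 6.66% in the other 5 libraries. Voom gave library D the lowest sample weight, 0.155. Its differences from E and F followed the GC content of the transcript, with a Spearman rho of -0.58 across 14137 genes of at least 1 CPM (the count scaled to library size, with TMM factors) on average, which are not independent replicates. Over the same genes the rho of these differences with transcript length was 0.34. The log2 fold change of AVJ16 over DMSO had a rho of -0.23 with transcript length and -0.10 with GC content. Because library D stood apart, results for the members are given with and without it. KRT8 and KRT18, the keratins of simple epithelia, were expressed in every library, whereas EPCAM and KRT19 were under 1 CPM, and CDH1, E-cadherin, fell to 0.183, 0.0831 and 0.436 CPM in AVJ16 libraries, against 1.28, 1.597 and 1.46 CPM in DMSO libraries. The 5 epithelial markers summed to 728 to 1091 CPM in AVJ16 libraries and 741 to 853 CPM in DMSO libraries. The 3 mesenchymal markers, mostly VIM, summed to 7498 to 7652 CPM in AVJ16 libraries and 5448 to 6307 CPM in DMSO libraries, while FN1 was lower in AVJ16 cells (log2 fold change -0.68) and CDH2 was at -0.21. The 5 fibroblast markers, mostly COL3A1 and COL1A1, summed to 5.90 to 7.19 CPM in AVJ16 libraries and 13.0 to 14.3 CPM in DMSO libraries. COL3A1 and COL1A1 were lower in AVJ16 cells (log2 fold changes -1.46 and -0.81). DCN was at 0.12, and DCN, LUM and PDGFRB were under 1 CPM in every library. Markers of lung alveolar, leukocyte and endothelial cells summed to under 3 CPM in every library, and SFTPC, PTPRC and CD3E were not analysed here. The part of these shifts in the results was not tested, and in bulk RNA fewer cells of a type and less RNA per cell cannot be told apart.

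Of the 40 members, 6 were lower in AVJ16 cells and 0 were higher at an adjusted p of 0.05 (edgeR quasi-likelihood test, Benjamini-Hochberg over all genes tested). At an unadjusted p under 0.05, 2 were higher, and DESeq2 called 0 higher. The 6 were ALDOC, SLC16A1, PDK1, PDK3, EGLN1 and EGLN3. Over all genes tested 14.6% passed, 5.87% higher and 8.77% lower, so the 15% of members that passed was close to the share of all genes. These were 958 genes higher and 1432 lower, beside 523 and 2215 with scaling by library size alone, which put the median of all genes at -0.12. The median log2 fold change of AVJ16 over DMSO was 0.02 over the members and -0.01 over all genes. Of the members, 34 did not pass, and their 95% intervals in the plot of fold changes show which sizes of change these data leave possible. The groups did not overlap in 16 of the 40 members, or 40%, beside 37.1% of all genes tested.

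**Figure D1:**
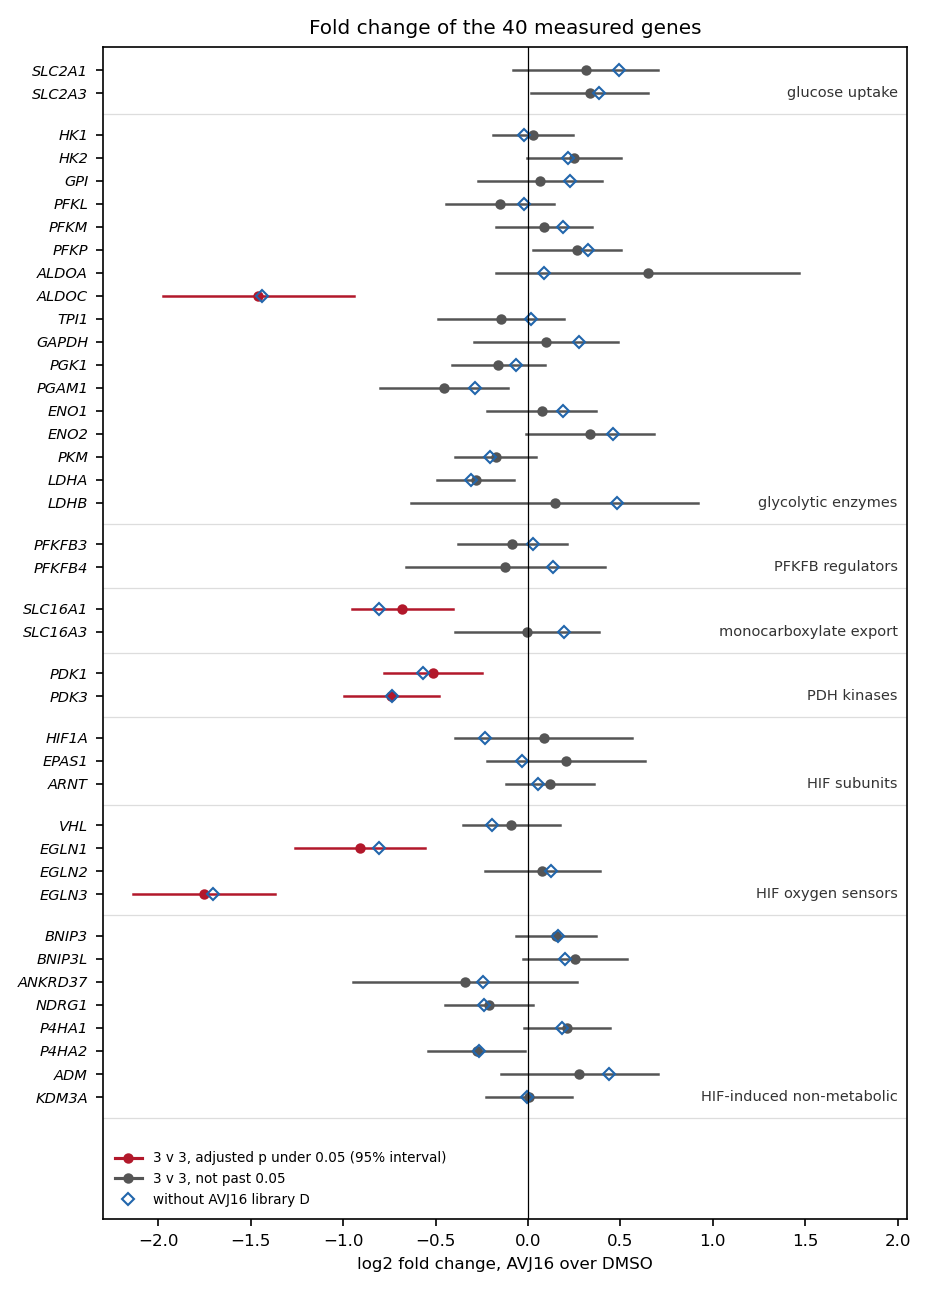
Log2 fold change of AVJ16 over DMSO for the 40 measured genes, in blocks by role. Filled points are the estimates from 3 against 3 libraries with their 95% intervals, red where the adjusted p was under 0.05, and open diamonds are the estimates without AVJ16 library D. The 6 red genes lie left of 0 with and without library D, and EGLN3 lies furthest out at -1.75.

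**Figure D2:**
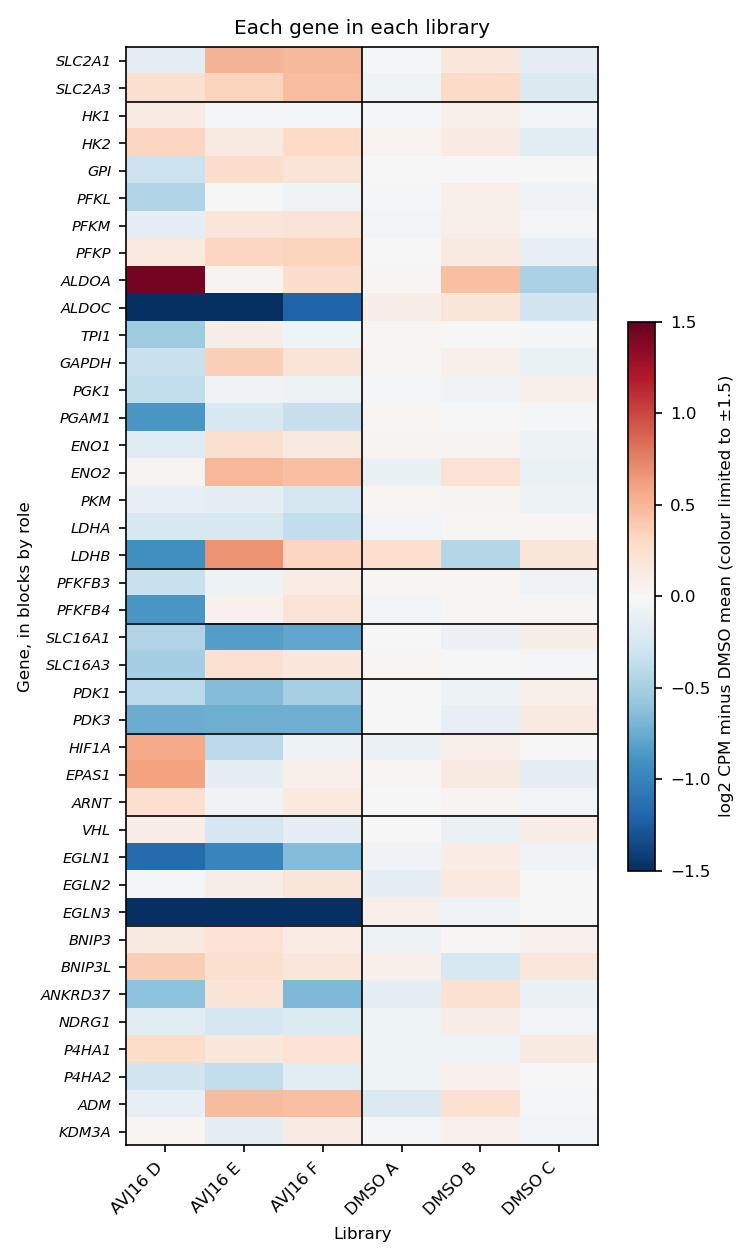
Log2 CPM of each gene in each library minus its mean in the DMSO libraries, with the AVJ16 libraries left of the DMSO libraries and black lines between role groups. EGLN3, ALDOC, EGLN1, PDK3, SLC16A1 and PDK1 are blue in all 3 AVJ16 libraries, whereas many glycolytic enzymes are blue in library D and pale or red in E and F.

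The hypoxia response element that HIF binds has a core that can read ACGTG. RefSeq promoter windows of GRCh38.p14, running from 250 bases before to 50 after a transcription start, were matched by symbol for 36 of the 41 members. SLC2A3, SLC16A1, VHL, NDRG1 and BNIP3L had none. ACGTG was present on either strand in at least 1 window of 21 of the 36 members, or 58.3%, beside 24.9% of 27305 genes. Of all 35116 windows 21.4% held it, and the share of windows was not computed for the members. A gene with several windows has more chances to hold the core. PFKM had 7 windows and SLC16A3 had 5, while HK1 had 7 that held none. CA9, whose expression was not analysed, is among both the 36 and the 21. Of the members lower in AVJ16 cells with a window, 4 of 5 held it and EGLN3 did not. It was present in 16 of the 30 members with a window that did not pass the test. The windows of the 4 lower genes, and for comparison those of 2 genes that did not pass, LDHA and PGK1, are shown so that the cores can be read in genes of both outcomes. LDHA and PGK1 are the members that did not pass with the most occurrences. Capitals mark ACGTG, or CACGT where the core is on the opposite strand. CACGTG holds both in overlap, is also the letters of the E-box bound by MYC, and was counted as 1 occurrence.
ALDOC, chr17:28576846-28577145, minus strand: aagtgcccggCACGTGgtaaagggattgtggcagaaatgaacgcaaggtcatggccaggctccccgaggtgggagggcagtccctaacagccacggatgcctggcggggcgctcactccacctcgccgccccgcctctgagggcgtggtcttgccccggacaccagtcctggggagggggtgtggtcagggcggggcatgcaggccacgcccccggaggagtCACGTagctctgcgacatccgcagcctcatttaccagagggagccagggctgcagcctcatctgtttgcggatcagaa
PDK1, chr2:172555840-172556139, plus strand: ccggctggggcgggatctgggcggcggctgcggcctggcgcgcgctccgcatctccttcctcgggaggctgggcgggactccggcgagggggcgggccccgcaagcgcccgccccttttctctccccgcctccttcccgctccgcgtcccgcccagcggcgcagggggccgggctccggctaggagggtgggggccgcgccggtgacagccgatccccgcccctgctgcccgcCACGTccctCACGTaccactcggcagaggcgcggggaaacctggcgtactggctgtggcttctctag
PDK3, chrX:24465036-24465335, plus strand: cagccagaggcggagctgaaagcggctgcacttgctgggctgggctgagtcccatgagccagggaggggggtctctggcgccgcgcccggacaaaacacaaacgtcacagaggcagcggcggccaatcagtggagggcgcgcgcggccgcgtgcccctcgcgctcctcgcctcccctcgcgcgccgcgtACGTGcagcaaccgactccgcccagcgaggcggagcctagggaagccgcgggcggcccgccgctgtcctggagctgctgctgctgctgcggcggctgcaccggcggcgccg
EGLN1, chr1:231422238-231422537, minus strand: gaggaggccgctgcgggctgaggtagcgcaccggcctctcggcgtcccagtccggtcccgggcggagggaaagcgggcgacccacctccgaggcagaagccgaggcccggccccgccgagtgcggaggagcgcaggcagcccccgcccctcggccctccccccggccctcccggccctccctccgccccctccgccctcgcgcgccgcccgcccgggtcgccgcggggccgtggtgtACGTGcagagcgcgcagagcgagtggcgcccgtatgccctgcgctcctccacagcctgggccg
LDHA, chr11:18394313-18394612, plus strand: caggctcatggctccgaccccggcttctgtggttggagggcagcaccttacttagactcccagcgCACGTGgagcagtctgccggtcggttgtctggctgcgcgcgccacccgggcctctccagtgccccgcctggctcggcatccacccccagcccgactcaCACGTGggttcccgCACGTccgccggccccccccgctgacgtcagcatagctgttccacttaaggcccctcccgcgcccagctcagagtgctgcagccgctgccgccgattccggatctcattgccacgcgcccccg
PGK1, chrX:78103998-78104297, plus strand: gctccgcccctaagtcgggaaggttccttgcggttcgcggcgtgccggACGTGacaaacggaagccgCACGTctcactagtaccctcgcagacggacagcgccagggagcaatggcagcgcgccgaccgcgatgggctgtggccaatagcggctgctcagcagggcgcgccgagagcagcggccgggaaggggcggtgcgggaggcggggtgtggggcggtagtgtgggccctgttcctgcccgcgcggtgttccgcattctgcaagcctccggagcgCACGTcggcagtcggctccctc
ALDOC and PDK1 each held 2 marked runs in these windows and PDK3 and EGLN1 each held 1, while LDHA and PGK1 each held 3. A second window of PDK1 and a second window of LDHA held none. A match of these letters is a description of the sequence and not a binding site.

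Both PDH kinases on the list were lower in AVJ16 cells, beside 8.77% of all genes tested that were lower. PDK3, a PDH kinase isoform, had 15.3, 15.4 and 15.3 CPM in AVJ16 libraries D, E and F, against 25.5, 23.4 and 28.0 CPM in DMSO libraries A, B and C. Its AVJ16 libraries were nearly equal and lay below every DMSO library, with a log2 fold change of -0.74 (SE 0.11, edgeR adjusted p = 0.00444). PDK1, the isoform best known as a HIF-1 target, had 15.4, 13.0 and 14.4 CPM in AVJ16 libraries, against 20.5, 19.3 and 21.4 CPM in DMSO libraries. The groups did not overlap, and the log2 fold change was -0.51 (SE 0.12, edgeR adjusted p = 0.0204). The call on PDK1 was lost when any library other than D was left out, with an adjusted p of 0.104 without A, 0.0571 without B, 0.0985 without C, 0.0627 without E and 0.0935 without F. Without library D the log2 fold change of PDK1 was -0.57 (adjusted p = 0.000579). PDK1 and PDK3 had the longest transcripts of the members, 14072 and 12720 bases, and the part of transcript length in these results was not tested.

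Of the other genes of the PDH complex and pyruvate import, 1 of 12 passed the test, or 8.33% beside 14.6% of all genes, and it was higher. PDP1, a phosphatase that reactivates PDH, had 106, 90.0 and 115 CPM in AVJ16 libraries, against 67.1, 57.4 and 78.0 CPM in DMSO libraries. Every AVJ16 library was above every DMSO library (log2 fold change 0.62, SE 0.14, edgeR adjusted p = 0.0198). PDK2, the most widely expressed PDH kinase, was at -0.26 on the log2 scale (adjusted p = 0.145). Per kb of exon it had 7.67 CPM in AVJ16 and 9.16 CPM in DMSO libraries on average. PDK1 had 0.96 and 1.37, and PDK3 had 0.88 and 1.47. SAMD14 on the opposite strand overlaps 38.6% of the exon length of PDK2. MPC1, a subunit of the mitochondrial pyruvate carrier, had -0.27 on the log2 scale (adjusted p = 0.166). Of the 16 TCA cycle genes 0 passed in edgeR, beside 14.6% of all genes, and 0 in DESeq2. An unadjusted p under 0.05 was seen for 1 of them in each direction. The 4 with the smallest p were SDHC at -0.28, SDHB at 0.38, SUCLG1 at 0.19 and IDH3B at 0.20 on the log2 scale, all with an adjusted p of at least 0.0821.

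SLC16A1, the monocarboxylate transporter MCT1, which carries lactate and pyruvate across the plasma membrane, was per length the most abundant of the 6 lower genes. It had 117, 90.0 and 93.5 CPM in AVJ16 libraries, against 161, 150.3 and 169.9 CPM in DMSO libraries. The groups did not overlap, although library D was the highest of the 3 AVJ16 libraries (log2 fold change -0.68, SE 0.12, edgeR adjusted p = 0.00809). Without library F the adjusted p was 0.0587, and without library D the log2 fold change was -0.80 (adjusted p = 5.77e-06). SLC16A3, the exporter MCT4, which glycolytic cells use to release lactate, had 133, 220.0 and 211 CPM in AVJ16 libraries, against 192, 189 and 184 CPM in DMSO libraries. Library D was the lowest of all 6 and E and F were the highest, so the log2 fold change was -0.00 (95% interval -0.40 to 0.39) with library D and 0.19 (adjusted p = 0.0501) without it. Of the length-scaled CPM of the pair, SLC16A1 made up 56.2%, 37.3% and 39.2% in AVJ16 libraries, against 54.9%, 53.6% and 57.3% in DMSO libraries. The share was lower in E and F, while D lay within the DMSO range.

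Of the 4 oxygen sensing genes, VHL and the 3 EGLN genes, 2 passed, or 50%, beside 14.6% of all genes tested. Both were EGLN genes and lower, beside 8.77% of all genes that were lower. EGLN3, a HIF prolyl hydroxylase, showed the largest log2 fold change of the members, with 1.28, 1.25 and 1.58 CPM in AVJ16 libraries, against 4.91, 4.46 and 4.64 CPM in DMSO libraries. The AVJ16 libraries lay far below the DMSO libraries, whose spread was small (log2 fold change -1.75, SE 0.17, edgeR adjusted p = 0.000938). EGLN1, the main prolyl hydroxylase of HIF-1 alpha in normal oxygen, had 5.39, 6.07 and 7.67 CPM in AVJ16 libraries, against 11.6, 12.9 and 11.6 CPM in DMSO libraries. The groups did not overlap (log2 fold change -0.91, SE 0.15, edgeR adjusted p = 0.00651). In GENCODE 44, which is later than the annotation used for the counting, another gene on the same strand covers 55.8% of the exon length of EGLN1, and whether reads were lost to it was not tested.

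EGLN2, the third prolyl hydroxylase, had 6.53, 7.06 and 7.57 CPM in AVJ16 libraries, against 6.01, 7.35 and 6.69 CPM in DMSO libraries. These ranges overlapped (log2 fold change 0.08, 95% interval -0.23 to 0.39). The exons of EGLN2 also share 30.6% of their length with a same-strand readthrough gene. Per length, EGLN2 made up 45.8%, 45.3% and 41.3% of the CPM of the 3 EGLN genes in AVJ16 libraries, against 24.5%, 27.1% and 26.8% in DMSO libraries. EGLN3 made up 7.6% ± 0.4 in AVJ16 libraries and 16.4% ± 1.6 in DMSO libraries (SD, n = 3 each). EGLN1 made up 48.3% ± 2.5 in AVJ16 libraries and 57.5% ± 0.8 in DMSO libraries. None of the 3 shares overlapped between the groups, and these shares were not tested. They depend on each other, so the EGLN2 share was higher where EGLN1 and EGLN3 were lower. With their same-strand overlaps the rows of EGLN1 and EGLN2 can be partial counts, so the shares are not read as proportions of the transcripts.

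VHL, which recognises hydroxylated HIF alpha subunits, had 107, 84.3 and 91.8 CPM in AVJ16 libraries, against 100.4, 93.7 and 108 CPM in DMSO libraries. The groups overlapped and the log2 fold change was -0.09 (95% interval -0.35 to 0.17). HIF1A, the oxygen-regulated subunit of HIF-1, had 142, 72.8 and 91.2 CPM in AVJ16 libraries, against 90.7, 101 and 96.8 CPM in DMSO libraries. Library D was the highest of the 6 and E the lowest, so the log2 fold change of 0.08 (95% interval -0.39 to 0.56) became -0.23 (adjusted p = 0.0729) without library D. EPAS1, the HIF-2 alpha subunit, had 22.8, 13.6 and 15.8 CPM in AVJ16 libraries, against 15.1, 16.4 and 13.5 CPM in DMSO libraries. It too was highest in library D (log2 fold change 0.21, 95% interval -0.22 to 0.64). ARNT, the constant partner of both, was between 65.7 and 80.5 CPM in all 6 libraries, again highest in D, with a log2 fold change of 0.12. Per length, HIF1A made up 89.1% ± 0.7 of the 2 alpha subunits in AVJ16 libraries and 90.1% ± 0.8 in DMSO libraries (SD, n = 3 each), a difference within the overlap of the groups.

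**Figure D3:**
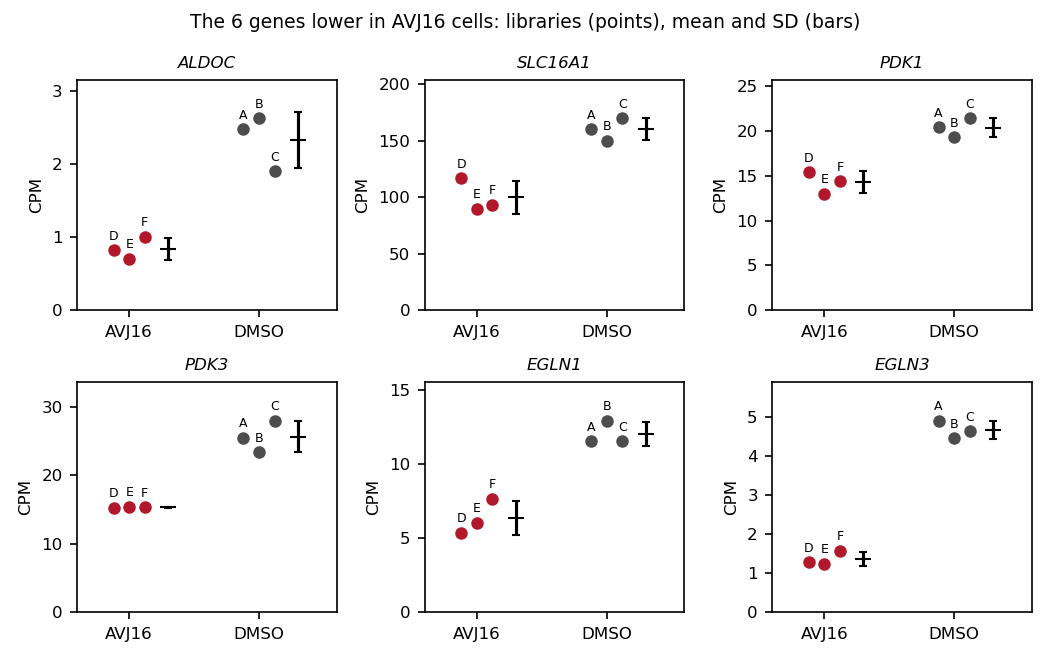
CPM of the 6 genes that were lower in AVJ16 cells, 1 panel a gene with its own axis starting at 0. Points are libraries, labelled D, E and F for AVJ16 and A, B and C for DMSO, and the bars beside them are the mean and SD. No AVJ16 point reaches a DMSO point in any panel, and the 3 PDK3 values of AVJ16 cells are nearly equal.

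Of the 17 glycolytic enzymes, edgeR called 1 lower in AVJ16 cells and 0 higher, or 5.88% beside 14.6% of all genes tested. DESeq2 also called 0 higher, and 1 was higher at an unadjusted p under 0.05. The median log2 fold change was 0.07. ALDOC, a fructose bisphosphate aldolase typical of brain, had 0.822, 0.706 and 1.01 CPM in AVJ16 libraries, against 2.48, 2.63 and 1.90 CPM in DMSO libraries. Its groups did not overlap (log2 fold change -1.46, SE 0.23, edgeR adjusted p = 0.00473), at a level far below that of the main enzymes. ALDOA, the muscle-type aldolase, had 27.6, 10.6 and 12.3 CPM in AVJ16 libraries, against 10.5, 14.0 and 7.32 CPM in DMSO libraries, with library D above the rest. In GENCODE 44, 42.8% of the exon length of ALDOA is shared on the same strand with AC093512.2, which had 16 to 56 counts in a library, so the row of ALDOA can be a partial count and is not read as its level.

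The most abundant members per length were GAPDH, ENO1 and TPI1. GAPDH, which oxidises glyceraldehyde 3-phosphate, had 4163, 6769 and 6003 CPM in AVJ16 libraries, against 5340, 5564 and 4913 CPM in DMSO libraries. Library D was the lowest and E and F the highest, so the groups overlapped (log2 fold change 0.10, 95% interval -0.29 to 0.49), and without library D the fold change was 0.28 (adjusted p = 0.0288). ENO1, the main enolase, had the same order, with 1630.0, 2212 and 2058 CPM in AVJ16 libraries, against 1918, 1916 and 1774 CPM in DMSO libraries. Its log2 fold change was 0.07 (95% interval -0.22 to 0.37) with library D and 0.19 (adjusted p = 0.0786) without it.

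LDHA, PKM and PGAM1 had lower values in every AVJ16 library without passing the test. HK2 and PFKP had higher values in every AVJ16 library and did not pass either. Their log2 fold changes were 0.25 (adjusted p = 0.169) and 0.27 (adjusted p = 0.124). ENO1, ENO2 and LDHB, of the same late steps as LDHA, PKM and PGAM1, had fold changes above 0. LDHA, the lactate dehydrogenase subunit that favours lactate formation, had 508, 507 and 463 CPM in AVJ16 libraries, against 582, 605 and 610 CPM in DMSO libraries. Library D lay beside E, and the groups did not overlap (log2 fold change -0.28, SE 0.09, edgeR adjusted p = 0.0709). PKM, pyruvate kinase, had 1150, 1123 and 1046 CPM in AVJ16 libraries, against 1270, 1287 and 1188 CPM in DMSO libraries. These too did not overlap (log2 fold change -0.17, 95% interval -0.39 to 0.04, adjusted p = 0.259). PGAM1, phosphoglycerate mutase, had 127, 199 and 184 CPM in AVJ16 libraries, against 238, 232 and 229 CPM in DMSO libraries, all AVJ16 values being the lower (log2 fold change -0.45, SE 0.15, edgeR adjusted p = 0.0791). PGAM1 and LDHA passed without library D, at -0.29 (adjusted p = 0.00868) and -0.31 (adjusted p = 0.00721).

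The remaining enzymes did not pass with all 6 libraries. HK1, the housekeeping hexokinase, and PFKM, a phosphofructokinase, had log2 fold changes of 0.03 and 0.09, and TPI1, triose phosphate isomerase, and PGK1, phosphoglycerate kinase, had -0.15 and -0.16. GPI, which converts glucose 6-phosphate to fructose 6-phosphate, was at 345 CPM in library D and at 520 and 495 CPM in E and F, against 436, 429 and 433 CPM in DMSO libraries. LDHB, the lactate dehydrogenase subunit that favours pyruvate formation, varied widely within the groups, with 50.1, 152 and 119 CPM in AVJ16 libraries, against 113, 70.2 and 108 CPM in DMSO libraries. Its interval, from -0.63 to 0.92 on the log2 scale, leaves a change of either sign possible, and 33.4% of its exon length is shared on the same strand with another gene.

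Within most enzyme families the isoform shares did not overlap between the groups, whereas those of PFKM and the lactate dehydrogenases did. For single genes, 37.1% of all genes tested did not overlap, and no share was tested. The aldolase shares rest on the ALDOA row. PDK1 made up 52.2% ± 2.2 of the 2 listed PDH kinases per length in AVJ16 libraries and 48.4% ± 0.9 in DMSO libraries (SD, n = 3 each). PDK2, which was higher per length than either, is not part of this share. HK2, the inducible hexokinase, made up 48.2% ± 1.4 of the 2 hexokinases per length in AVJ16 libraries and 44.3% ± 1.9 in DMSO libraries (SD, n = 3 each). PFKP, the platelet-type phosphofructokinase, made up 40.7%, 37.0% and 37.7% of the 3 phosphofructokinases in AVJ16 libraries, against 33.8%, 34.4% and 32.2% in DMSO libraries. PFKL, the liver type, made up 28.5%, 31.7% and 30.7% in AVJ16 libraries, against 35.5%, 35.1% and 36.0% in DMSO libraries. The HK2, PFKP and PFKL shares did not overlap between the groups, and library D was at the far end of both phosphofructokinase shares. ENO2, the neuronal-type enolase, made up 2.5% ± 0.1 of the enolases in AVJ16 libraries and 2.1% ± 0.2 in DMSO libraries (SD, n = 3 each), again without overlap. By themselves PFKP (log2 fold change 0.27, adjusted p = 0.124) and ENO2 (0.33, adjusted p = 0.175) did not pass with all 6 libraries, and both passed without library D at 0.32 (adjusted p = 0.00769) and 0.46 (adjusted p = 0.00279).

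The glucose transporters had higher values in AVJ16 cells that did not pass with all libraries. SLC2A1, the transporter GLUT1, had 65.6, 103 and 101 CPM in AVJ16 libraries, against 71.4, 80.7 and 65.4 CPM in DMSO libraries. E and F exceeded every DMSO library and D did not (log2 fold change 0.31, adjusted p = 0.259). SLC2A3, the high affinity transporter GLUT3, had 73.6, 78.3 and 85.9 CPM in AVJ16 libraries, against 59.3, 75.7 and 53.4 CPM in DMSO libraries, so that D overlapped DMSO library B (log2 fold change 0.34, adjusted p = 0.141). Without library D they were at 0.49 (adjusted p = 0.000638) and 0.38 (adjusted p = 0.0245). PFKFB3 and PFKFB4, which set the level of fructose 2,6-bisphosphate, the activator of phosphofructokinase, were lowest of the 6 libraries in D. Their log2 fold changes were -0.09 and -0.12 with library D and 0.03 and 0.13 without it, and none of the 4 values passed.

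Of the 8 HIF-induced genes outside metabolism that were measured, 0 passed in either direction by edgeR, beside 14.6% of all genes tested. DESeq2 also called 0, and 1 had an unadjusted p under 0.05. The groups did not overlap in 5 of the 8, beside 37.1% of all genes tested. BNIP3 and BNIP3L, receptors for the removal of mitochondria, had log2 fold changes of 0.15 and 0.26, and every AVJ16 library was above every DMSO library for both. P4HA1, a subunit of the collagen prolyl hydroxylase, also had higher values in AVJ16 libraries, 68.1, 62.8 and 65.4 CPM, against 53.8, 53.9 and 61.8 CPM in DMSO libraries. Its paralog P4HA2 had lower ones, 12.4, 11.8 and 13.6 CPM in AVJ16 libraries, against 14.5, 16.0 and 15.2 CPM in DMSO libraries. The share of P4HA2 in the pair per length was 5.5% ± 0.4 in AVJ16 libraries and 7.6% ± 0.7 in DMSO libraries (SD, n = 3 each), without overlap. NDRG1, a stress-induced gene, had 26.4, 24.6 and 25.6 CPM in AVJ16 libraries, against 28.1, 31.7 and 28.8 CPM in DMSO libraries. ADM, the peptide hormone adrenomedullin, had 7.95, 12.01 and 11.8 CPM in AVJ16 libraries, against 7.48, 10.1 and 8.54 CPM in DMSO libraries, and passed only when library D was left out (log2 fold change 0.44, adjusted p = 0.0144) or given a low weight. KDM3A, a histone demethylase, had a log2 fold change of 0.01, and ANKRD37, between 1.14 and 2.13 CPM in every library, had -0.34 (95% interval -0.94 to 0.27).

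The glycolytic enzymes and the HIF-induced genes outside metabolism had nearly the same median log2 fold change. The median log2 fold change was 0.07 over the 17 enzymes and 0.08 over the 8 HIF-induced genes, a difference of -0.01. Per library, the median of the enzymes minus the median of the HIF-induced genes, each taken relative to the DMSO mean, was -0.19 in D, -0.08 in E and 0.02 in F, against 0.09 in A, 0.00 in B and -0.04 in C. The within-group SD of this difference was 0.09, and the groups overlapped, with D the lowest value. The median of the enzymes was -0.24 in D, 0.09 in E and 0.14 in F.

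**Figure D4:**
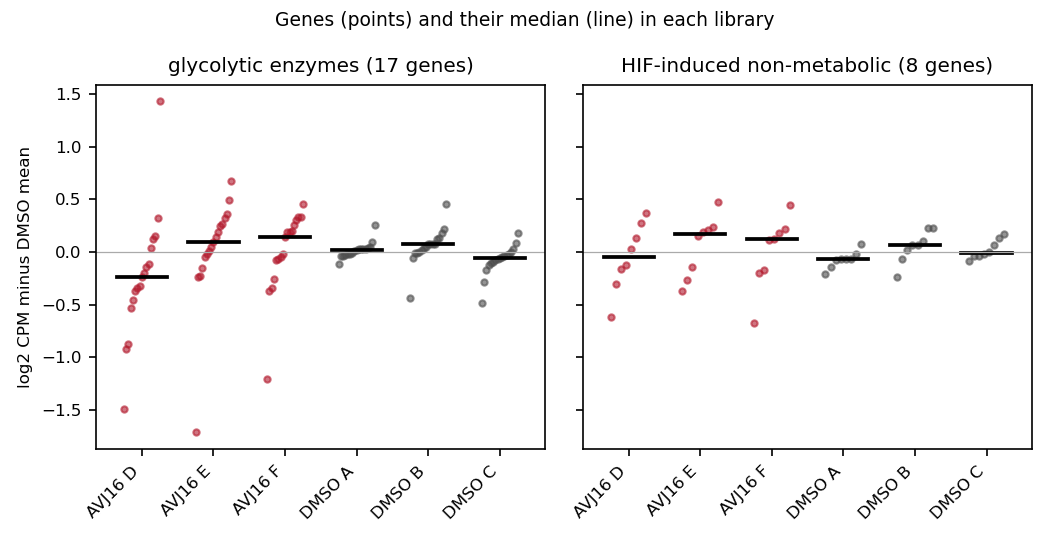
Log2 CPM minus the DMSO mean in each library for the 17 glycolytic enzymes and the 8 measured HIF-induced genes outside metabolism. Points are genes, black lines are medians, and AVJ16 libraries (red) are left of DMSO libraries (grey). The median of the enzymes is lowest in library D, at -0.24, and highest in F, at 0.14, and that of the HIF-induced genes is highest in AVJ16 library E, at 0.17, and lowest in DMSO library A, at -0.07.

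Which enzymes passed depended on library D. It was the lowest of the 6 libraries for 9 of the 17 glycolytic enzymes, 52.9%, beside 28.5% of all genes tested, and the highest for all 3 HIF subunits. Across the 40 members the difference of D from the mean of E and F had a Spearman rho of -0.55 with transcript GC content, a description of genes that share these libraries. The enzymes had a median GC content of 53.1% and the HIF-induced genes 43.7%, beside 47.8% over all genes tested. HIF1A, at a GC content of 36.4%, was 0.80 higher in D on the log2 scale, and SLC16A3, at 62.7%, was 0.70 lower. LDHB at 46.5% and ALDOA at 54.3% lay far from this trend, at -1.42 and 1.28. The part of RNA quality, GC content or transcript length in the results was not tested, but a fit with a GC correction was run.

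**Figure D5:**
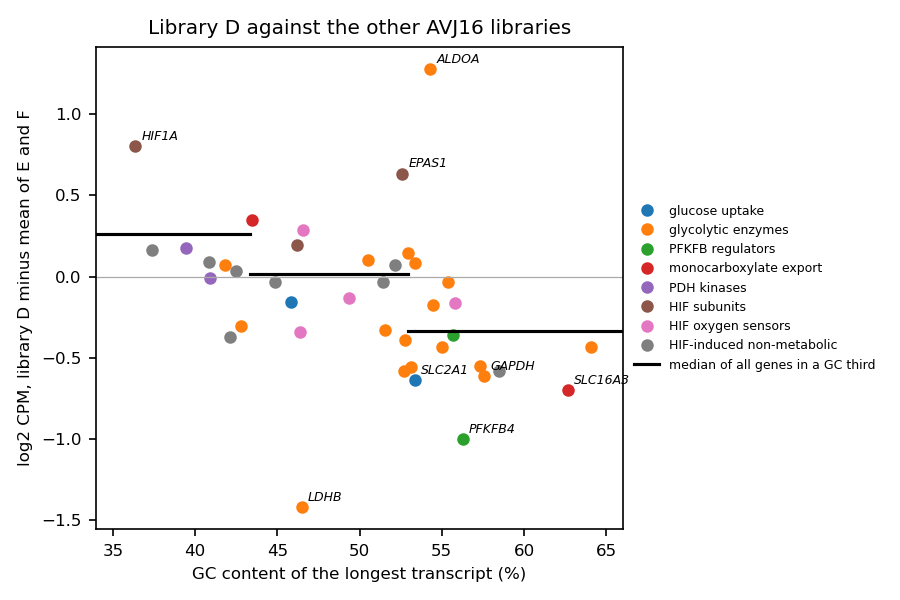
Log2 CPM of each member in library D minus the mean of AVJ16 libraries E and F, against the GC content of its longest transcript in GENCODE 44. Points are genes coloured by role, and black lines are medians of all genes of at least 1 CPM in 3 equal bins of GC content, 0.26, 0.02 and -0.34. Most enzymes lie below 0 on the right, and HIF1A lies highest on the left.

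Without library D, 15 of the 40 members passed, 7 higher and 8 lower, or 37.5%, beside 37.2% of all genes tested (17.6% higher and 19.6% lower). The 7 higher were SLC2A1, SLC2A3, GPI, PFKP, GAPDH, ENO2 and ADM, and PGAM1 and LDHA joined the 6 lower genes. With each library corrected for GC content, an alternative chosen after seeing the data, 10 members passed, or 25%, beside 24.9% of all genes. These were PFKP and ENO2, which were higher, and PGAM1, LDHA and the same 6 genes, which were lower. With voom sample weights 18 members passed, 9 in each direction, or 45%, beside 43.7% of all genes, and with scaling by library size alone 8 passed, all lower, or 20%, beside 16.8%. The 6 lower genes were the same in each of these 4 fits, and in all of them the members passed about as often as genes at large.

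Other genes of these pathways were read from lists of the same kind. Of 28 other HIF-induced genes, 7 passed, or 25%, with 5 higher and 2 lower, beside 14.6% of all genes tested (5.87% higher and 8.77% lower). Among those with the smallest p were CA12, carbonic anhydrase 12, at -2.36 (SE 0.30, edgeR adjusted p = 0.00214), LOXL2, a lysyl oxidase, at 0.69 (SE 0.10, adjusted p = 0.00386) and STC1, stanniocalcin 1, at 0.71 (SE 0.13, adjusted p = 0.0083). The HIF-induced genes that passed thus went in both directions, and the median of the list was 0.03 on the log2 scale. CA12 had 0.959, 1.54 and 0.905 CPM in AVJ16 libraries, against 4.403, 7.92 and 4.93 CPM in DMSO libraries, so that no library of the groups overlapped.

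Among 11 other tested regulators of HIF 2 passed, or 18.2% beside 14.6% of all genes. ARNT2, a paralog of ARNT, was lower at -1.16 (SE 0.16, edgeR adjusted p = 0.00309), and SIAH2, a ubiquitin ligase that targets EGLN proteins, was higher at 0.56 (SE 0.12, adjusted p = 0.0145). ARNT2 had 4.20, 2.91 and 3.55 CPM in AVJ16 libraries, against 8.26, 7.52 and 8.004 CPM in DMSO libraries, whereas its paralog ARNT did not pass. Of 17 other tested genes of glycolysis and glycogen, 3 passed, or 17.6% beside 14.6% of all genes, with 3 lower and 0 higher in edgeR, with 2 higher at an unadjusted p under 0.05 and 0 higher in DESeq2. The lower genes were GYS1, glycogen synthase (-0.48, SE 0.10, adjusted p = 0.0167), PGM1, phosphoglucomutase (-0.35, SE 0.10, adjusted p = 0.0482), and LDHC, the testis lactate dehydrogenase, which was under 1 CPM in every library (-1.43, SE 0.34, adjusted p = 0.0243).

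Of 9 genes placed upstream of glycolysis, 2 passed, or 22.2% beside 14.6% of all genes tested. They were TXNIP and ARRDC4, both lower, beside the 8.77% of all genes that were lower. The other 7, MYC among them, did not pass. TXNIP, an arrestin-like protein that lowers glucose uptake and is induced by glucose, had 1.01, 0.831 and 0.871 CPM in AVJ16 libraries, against 2.61, 2.36 and 2.88 CPM in DMSO libraries (log2 fold change -1.53, SE 0.20, edgeR adjusted p = 0.00226). No AVJ16 library reached a DMSO library. ARRDC4, its close relative, was at -0.94 (SE 0.27, adjusted p = 0.0482). In the pentose phosphate pathway 1 of 7 genes passed, or 14.3% beside 14.6% of all genes. It was PGD, phosphogluconate dehydrogenase, which was higher at 0.31 (SE 0.09, adjusted p = 0.049), and 0 of the 3 tested gluconeogenesis genes did, nor did any in DESeq2 or at an unadjusted p.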

How the data were processed

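Poly(A) RNA of H1299 cells in 6 libraries was read as a count per gene. Per the labels and methods, the authors trimmed reads with cutadapt 2.10, aligned them to GRCh38 with TopHat2 2.1.1 (Ensembl annotation), counted them with HTSeq 2.01, dropped genes whose counts summed to less than 10, and normalised with DESeq2 1.36.0. The deposited counts were used and the normalised columns and the authors' comparisons were not. No source used here states whether counting used strand. The columns are lettered, and the bar over the authors' heat map gave their groups (A to C DMSO, D to F AVJ16). The members and lists were chosen with earlier results of these data known.

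The counts were compared by edgeR 4.0.16 in R 4.3.3 with limma 3.58.1 (filterByExpr with a minimum count of 10, TMM, robust two-sided quasi-likelihood F test, Benjamini-Hochberg over all genes, threshold 0.05, prior count 0.125). The SE is the absolute log2 fold change over the square root of F. The fit was also run on simulated counts, drawn independently for each gene and library. They held no shift like that of library D, so this run cannot tell how the fit handles it. Exon lengths, overlaps and transcript GC came from GENCODE 44, and levels between genes were compared as CPM per exon length. Library totals bound the precision of low genes. Alternatives were DESeq2 1.42.0 (size factors and test), library size or upper quartile scaling, no filter, voom sample weights, each library left out, the study's thresholds (0.1 and 0.5), and a GC correction chosen after seeing the data. Per-library values are given for members that passed and for those listed beforehand, among them HIF1A, GAPDH, PKM, LDHA and ENO1. A gene of the HIF-induced list is counted but not reported here.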

Additional observations from a re-analysis of the deposited data

How the results depend on the processing

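All 6 lower genes kept their direction in every fit, and ALDOC, PDK3, EGLN1 and EGLN3 also kept their call. Over all genes, 1909 were higher and 2147 lower with the GC correction, 3399 and 3737 with voom sample weights, and 523 and 2215 with library size alone, which moved the median of all genes to -0.12. Leaving out 1 library gave 231 to 2958 higher and 527 to 3292 lower, the most without D. Of the members, 2 were higher with the GC correction and 9 with voom weights, and 0 to 7 were higher and 4 to 8 lower with 1 library left out. The enzyme minus HIF-induced difference of medians was 0.042 with voom weights and -0.15 to 0.014 with 1 library left out.

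Several small log2 fold changes took the other sign. With library size alone these were HK1 (-0.084), GPI (-0.039), PFKM (-0.021), GAPDH (-0.0061), ENO1 (-0.034), HIF1A (-0.034), EGLN2 (-0.030) and KDM3A (-0.10), and with upper quartile scaling KDM3A (-0.0019). With voom weights they were PFKFB3 (0.017), PFKFB4 (0.12), SLC16A3 (0.13) and HIF1A (-0.11). SLC16A3 was 0.011 with DESeq2 size factors, 0.012 in the DESeq2 test and 0.045 with the GC correction. With 1 library left out, the ranges were -0.023 to 0.073 for HK1, -0.042 to 0.23 for GPI, -0.28 to 0.017 for TPI1, -0.051 to 0.28 for GAPDH, -0.018 to 0.19 for ENO1, -0.19 to 0.48 for LDHB, -0.18 to 0.026 for PFKFB3, -0.31 to 0.13 for PFKFB4, -0.13 to 0.19 for SLC16A3, -0.23 to 0.28 for HIF1A, -0.031 to 0.36 for EPAS1 and -0.033 to 0.077 for KDM3A. No value that changed sign passed the test in that fit. The causes were not tested. No paired analysis was possible because the columns carry no replicate numbers.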
